A study of Saccharomyces bayanus x Saccharomyces cerevisiae with 8 samples.

Results

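The genes of branched-chain amino acid synthesis were compared between the alleles of a hybrid yeast. They were taken from a list of 10 systematic names, of which 8 had counts and were analysed, among 4238 ortholog pairs in all. ILV6 (YCL009C), the regulatory subunit of acetolactate synthase, and LEU1 (YGL009C), the isopropylmalate isomerase, were not analysed here. All 8 genes passed the filter on low counts, as did 4197 of the 4238 pairs.

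The strain was OZY27, a hybrid that holds the genomes of Saccharomyces cerevisiae and Saccharomyces bayanus. Its S. cerevisiae parent was isogenic to W303 and carried his3, leu2, lys2, trp1 and ura3. Its S. bayanus parent derived from CBS 4001 and carried ade2, his3 and lys2. The labels do not say which leu2 allele is present. Biological replicates 1 and 2 were separate cultures in log phase at 25 degrees in YPD, a rich medium with glucose that supplies amino acids, and each gave 1 library. There is therefore 1 strain and 1 condition, and the comparison is between the alleles within each culture. The libraries were run in 8 lanes, 5 for replicate 1 and 3 for replicate 2, with 5 lanes at UCB and 3 at UCR. Each lane held 2350222 to 3159446 reads assigned to an allele.

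Isoleucine and valine are made in parallel by the same mitochondrial enzymes, and leucine branches off from the keto acid that precedes valine. The aminotransferases then add the amino group at the end of all 3 branches. In S. cerevisiae much of the pathway is under the transcription factors Leu3, which is activated by the leucine intermediate alpha-isopropylmalate, and Gcn4, which acts in amino acid starvation. Genes are given by their S. cerevisiae names, and roles are those known in S. cerevisiae.

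The alleles of LEU2 were far apart in level, whereas the fitted ratios of the other 7 genes over both cultures were at most 1.46-fold. LEU2, LEU4 and BAT1 were higher from the S. bayanus genome and LEU9 from the S. cerevisiae genome, and ILV2, ILV5, ILV3 and BAT2 did not pass the test. A gene passed when its p from edgeR's quasi-likelihood test, with the culture as a block and adjusted by Benjamini-Hochberg over all 4197 genes, was under 0.05. The count of 4 of 8 genes is near the background, since 53.5% of all tested genes passed. In the direction of S. bayanus 3 of 8 passed (26.6% of all tested genes), and in that of S. cerevisiae 1 of 8 (26.9%). This split depends on the processing: with the trend of the ratio over the GC difference of the orthologs taken out, 2 passed toward S. bayanus and 3 toward S. cerevisiae. It was 3 against 0 with 1 common library size for both alleles, without the length correction, and without lane 1. The median absolute log2 ratio of the 8 genes was 0.27 (1.21-fold), against 0.37 (1.30-fold) over all tested genes. The authors' deposited table calls LEU2, LEU4 and BAT1, all toward S. bayanus, and so 3 of the 8 genes, where 48.9% of its 4238 pairs are called. Each culture gave 1 library, so n = 2. The p-values measure the spread between these 2 cultures and their libraries, which edgeR estimates with information shared over all tested genes. The SE of a gene is therefore not its own spread alone. The log2 ratios of the 2 cultures had an SD of 0.46 for BAT2 and 0.03 for ILV3, at SEs of 0.17 and 0.08.

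**Figure D1:**
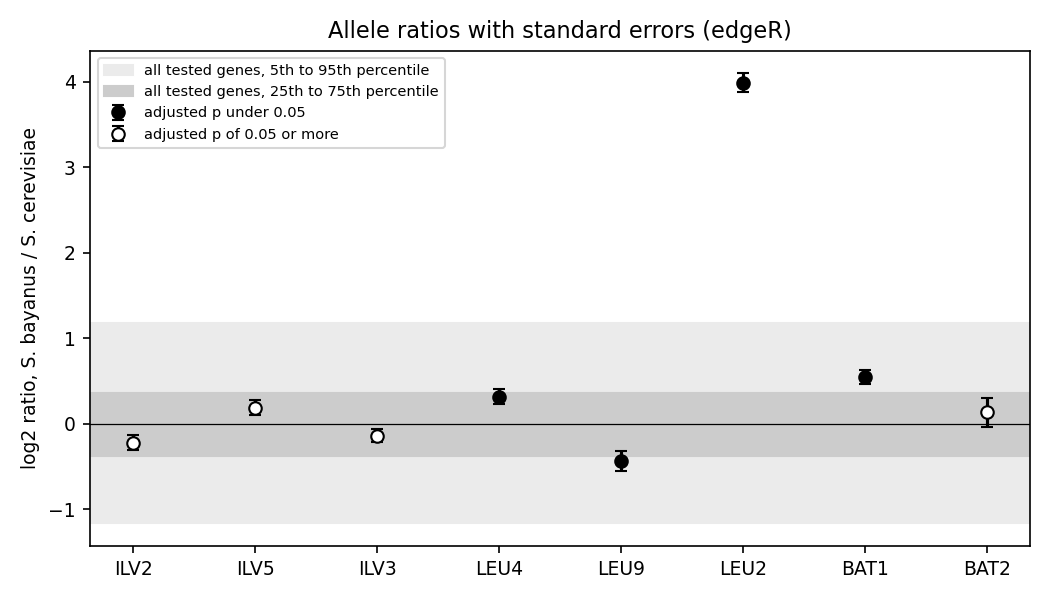
Fitted log2 ratio of S. bayanus to S. cerevisiae for each gene in pathway order (x axis, genes; y axis, log2 ratio; bars, standard error). Filled points passed the test, and bands show where all tested genes lie: LEU2 at 3.99 stands above the band of the 5th to 95th percentile (-1.16 to 1.18), and the other 7 genes lie inside it.

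Levels are given as reads per mappable kilobase per 1000000 reads of the same genome, or of both genomes where the alleles are summed. They were highest for ILV5 (YLR355C), the acetohydroxyacid reductoisomerase of the second common step, which also helps to maintain mitochondrial DNA. Over both alleles ILV5 had a level of 2968 in replicate 1 and 4900 in replicate 2, above 99.6% of all genes. ILV3 (YJR016C), the dihydroxyacid dehydratase of the third common step, followed at 792 and 1019. BAT1 (YHR208W), the mitochondrial aminotransferase, had 557 and 634, and ILV2 (YMR108W), the catalytic subunit of acetolactate synthase, had 468 and 525. The isopropylmalate synthases that open the leucine branch had 352 and 504 for LEU4 (YNL104C), and 436 and 396 for LEU9 (YOR108W). LEU2 (YCL018W), the isopropylmalate dehydrogenase, had 281 and 386 over both alleles. BAT2 (YJR148W), the cytosolic aminotransferase, was lowest at 156 and 132, where the median of all genes was 90.6. The replicates of ILV2 and LEU4 overlapped, but ILV2 was the higher within each culture. LEU4 and LEU9 changed places between the cultures. The values of LEU2 overlapped those of LEU4 and lay just under those of LEU9, and within each culture LEU2 was below both. These differences between genes were not tested. Reads could be mapped in less of the S. cerevisiae ortholog than the median of 90.9% in all these genes except BAT2 (92.1%). The share was 22.4% for ILV5, 58.1% for LEU2, 64.5% for LEU4, 64.7% for LEU9, 65.2% for ILV3, 75.6% for BAT1 and 81.3% for ILV2.

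**Figure D2:**
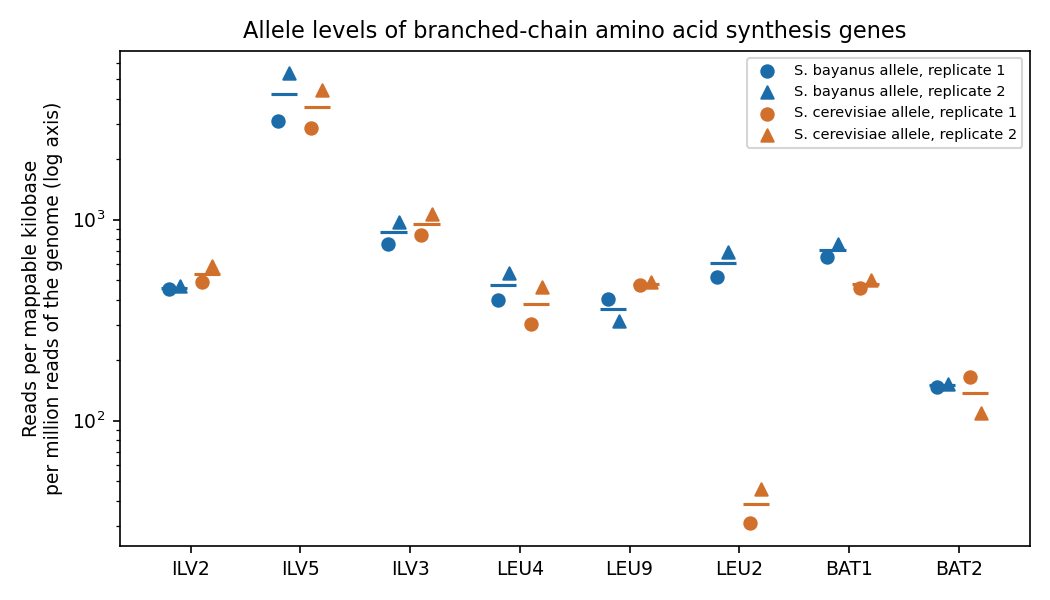
Level of each allele in each culture (x axis, genes in pathway order; y axis, reads per mappable kilobase per 1000000 reads of that genome, log axis; lines, mean of the 2 replicates). The S. cerevisiae allele of LEU2, at 30.9 and 45.6, is the lowest of all 16 alleles. Both ILV5 alleles are the highest in each culture, with 2855 as their lowest value.

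None of the 3 genes of the common steps passed the test, and ILV2 had the ratio furthest from balance among them. The S. bayanus allele of ILV2 had levels of 449 and 469 in replicates 1 and 2, against 487 and 587 for the S. cerevisiae allele. After scaling, the S. cerevisiae allele was the higher in both cultures and in 8 of 8 lanes. The log2 ratio of -0.22 ± 0.09 (SE) nevertheless did not pass the test (edgeR, adjusted p = 0.0792). For ILV5 the S. bayanus allele had levels of 3076 and 5343 and the S. cerevisiae allele 2855 and 4406. The cultures were further apart than the alleles, and the log2 ratio was 0.19 ± 0.09 (SE, edgeR, adjusted p = 0.117). Reads could be mapped in only 266 of the 1188 bases of ILV5 (22.4%) in each species, against a median of 90.9% in the S. cerevisiae orthologs of all genes, so these levels rest on a short stretch of the gene. For ILV3 the S. bayanus allele had levels of 753 and 976 and the S. cerevisiae allele 834 and 1066. Here too the S. cerevisiae allele was the higher in both cultures and, after scaling, in 8 of 8 lanes. The log2 ratio of ILV3 was -0.14 ± 0.08 (SE, edgeR, adjusted p = 0.170). With the GC trend taken out, ILV2 and ILV3 passed toward S. cerevisiae, at log2 ratios of -0.28 and -0.30 (edgeR, adjusted p = 0.0244 and 0.0135), and the ratio of ILV5 went to 0.02 (edgeR, adjusted p = 0.828). The GC content of the S. bayanus ortholog exceeds that of the S. cerevisiae ortholog by 2.44 percentage points for ILV2, 5.64 for ILV5 and 4.19 for ILV3, against a median of 1.75 over all genes.

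The leucine branch opens with a pair of paralogous isopropylmalate synthases, and their alleles differed in opposite directions. The S. bayanus allele of LEU4, the major synthase, had levels of 400 and 544 in replicates 1 and 2, and its S. cerevisiae allele 303 and 460. The S. bayanus allele was the higher in both cultures and in 8 of 8 lanes, at a log2 ratio of 0.32 ± 0.09 (SE, 1.25-fold, edgeR, adjusted p = 0.0275). The S. bayanus allele of LEU9 had levels of 403 and 312, and its S. cerevisiae allele 471 and 490. Here the S. cerevisiae allele was the higher in both cultures and in 8 of 8 lanes, at a log2 ratio of -0.44 ± 0.12 (SE, 1.35-fold, edgeR, adjusted p = 0.0284). The difference between the ratios of the paralogs was not tested. Summed over both synthases, the S. bayanus genome had levels of 802 and 856 and the S. cerevisiae genome 774 and 949. The genomes thus changed places between the cultures in this sum, at means of 829.3 ± 38.0 and 861 ± 124 (SD, n = 2).

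Both synthase ratios depend on the correction for mappable length. Reads could be mapped in 1471 bases of the S. bayanus ortholog of LEU4 and in 1199 of the S. cerevisiae ortholog, and in 1403 and 1175 bases for LEU9, although the orthologs are nearly equal in length. The S. bayanus mappable length was 1.23 times that of S. cerevisiae for LEU4 and 1.19 times for LEU9. A mappable length at least 1.2 times as long in S. bayanus was found for 20 of 4238 pairs (0.472%). LEU4 is among them, and LEU9 lies just under that cut. In raw reads, the S. bayanus allele of LEU9 had 4255 and 1898 reads and the S. cerevisiae allele 3970 and 2239, so replicate 1 had more S. bayanus reads. Without the length correction the log2 ratio of LEU9 was -0.18 (edgeR, adjusted p = 0.246) and that of LEU4 0.61 (edgeR, adjusted p = 0.00386). Reads from either paralog may also be shared with the other, and how such reads were assigned is not stated in the sources used here. The LEU4 difference did not pass without lane 3 (edgeR, adjusted p = 0.0610), with DESeq2 (adjusted p = 0.0743), without the replicate block (edgeR, adjusted p = 0.549) or with the GC trend taken out, where its log2 ratio was 0.16 (edgeR, adjusted p = 0.154). The LEU9 difference did not pass without lane 1 (edgeR, adjusted p = 0.0585), without the replicate block (edgeR, adjusted p = 0.175) or with 1 common library size for both alleles (edgeR, adjusted p = 0.0752).

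LEU2 had the widest allele difference of the pathway. In replicate 1 its S. bayanus allele had 457, 545, 490, 515 and 500 reads in lanes 1, 2, 5, 6 and 8. Its S. cerevisiae allele had 31, 24, 22, 32 and 32 reads in the same lanes. In replicate 2 the S. bayanus allele had 714, 652 and 557 reads in lanes 3, 4 and 7, and the S. cerevisiae allele 46, 32 and 35. In every lane the S. bayanus allele was thus far higher, and the alleles did not overlap. The S. cerevisiae allele gave 5.32% of the LEU2 reads in replicate 1 (4.50 to 6.25, exact binomial interval) and 5.55% in replicate 2 (4.60 to 6.63). These 95% intervals hold counting error alone: PCR copies cannot be told from independent molecules without molecular identifiers. The levels were 519 and 692 for the S. bayanus allele (605 ± 122, SD, n = 2) and 30.9 and 45.6 for the S. cerevisiae allele (38.3 ± 10.4). Among alleles of its own genome, that of S. bayanus stood above 90.7% of all S. bayanus alleles, and the S. cerevisiae allele above 24.5% of all S. cerevisiae alleles.

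The fitted log2 ratio of LEU2 was 3.99 ± 0.11 (SE, 15.9-fold, edgeR, adjusted p = 0.000163). In size it ranked 26 among the 4197 tested genes. It was 4.05 in replicate 1 and 3.92 in replicate 2, and between 3.78 and 4.42 in single lanes. The mappable lengths of its orthologs are nearly equal, at 642 and 636 of 1095 bases, and the GC difference, S. bayanus minus S. cerevisiae, is -2.76 percentage points. The labels list leu2 for the S. cerevisiae parent and not for the S. bayanus parent. A marker mutation on the S. cerevisiae chromosome and a difference in regulation between the species cannot be told apart in this hybrid. Both alleles had higher levels in replicate 2 than in replicate 1, at 1.33-fold for S. bayanus and 1.48-fold for S. cerevisiae. In the S. bayanus genome LEU2 came after ILV5, ILV3 and BAT1 in level, and in the S. cerevisiae genome it was last.

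At the last step, the mitochondrial aminotransferase had a higher S. bayanus allele. BAT1 had levels of 653 and 752 for its S. bayanus allele and 458 and 502 for its S. cerevisiae allele. Every S. bayanus value lay above every S. cerevisiae value, and the S. bayanus allele was the higher in 8 of 8 lanes. The log2 ratio was 0.54 ± 0.08 (SE, 1.46-fold, edgeR, adjusted p = 0.00500), from orthologs with mappable lengths of 893 and 894 bases and a GC difference of 0.721 percentage points. It ranged from 0.50 in replicate 1 to 0.59 in replicate 2. Of the 20 alternative fits with a test, 19 kept the call for BAT1, and the exception was the fit without the replicate block (edgeR, adjusted p = 0.128).

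The cytosolic aminotransferase BAT2 showed no common direction of its alleles. Its S. bayanus allele had levels of 147 and 152 and its S. cerevisiae allele 165 and 109. Over both cultures the log2 ratio was 0.13 ± 0.17 (SE, edgeR, adjusted p = 0.524). With the GC trend taken out it was -0.06, so the sign depends on that step. BAT1 was higher than BAT2 in both genomes and cultures. Its level was 4.43 and 4.95 times that of BAT2 in the S. bayanus genome, and 2.78 and 4.58 times in the S. cerevisiae genome. Summed over both aminotransferases the level was 852 ± 73.7 from the S. bayanus genome and 617 ± 7.92 from the S. cerevisiae genome (SD, n = 2).

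The allele ratio of 3 of the 8 genes differed between the cultures by more than the lanes spread. This was tested in edgeR as an allele by culture interaction over the 16 lane columns, which 17.9% of all tested genes passed. The shifts of the 8 genes were not larger in general, at a median absolute log2 shift of 0.16 against 0.17 over all tested genes. Their median SE was 0.065 against 0.128, so smaller shifts could pass in these genes. The S. bayanus share was higher in replicate 2 for BAT2 (8.72% of all tested genes passed in that direction) and higher in replicate 1 for ILV2 and LEU9 (9.20% of all). Lanes are repeat runs of 1 library per culture, so the culture and its library cannot be told apart.

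**Figure D3:**
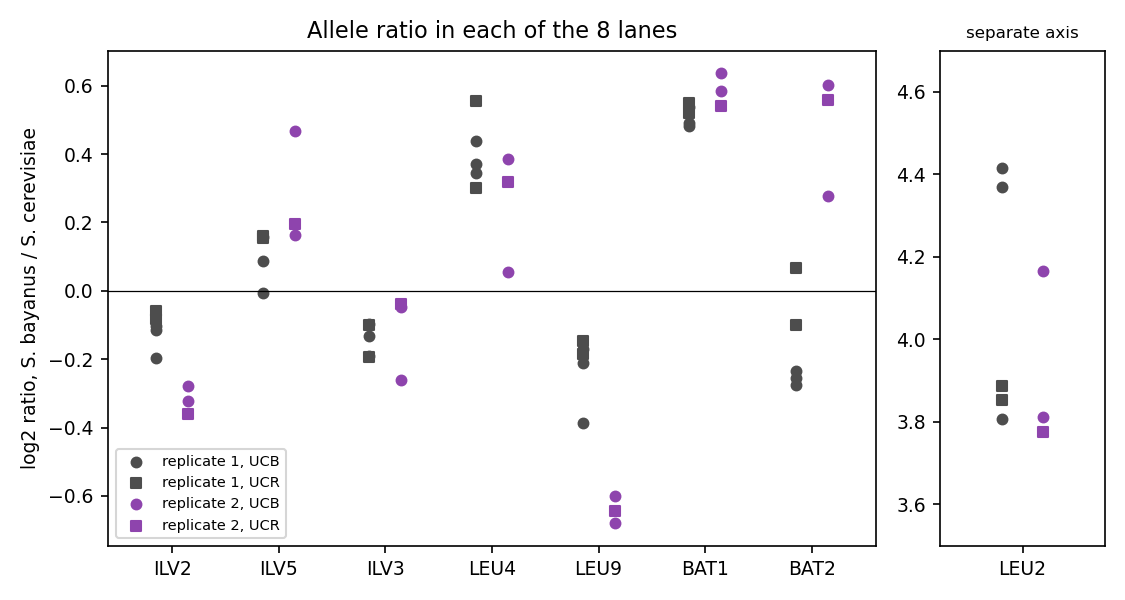
Log2 ratio of S. bayanus to S. cerevisiae in each of the 8 lanes (x axis, genes; y axis, log2 ratio; gray, replicate 1; purple, replicate 2; circles, UCB; squares, UCR), with LEU2 on its own axis. The lanes of the replicates are apart for ILV2, LEU9 and BAT2, and narrowly for ILV5, which did not pass the interaction test. The share of all tested genes with lanes apart was not counted.

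BAT2 had the widest shift, and it changed sign. In replicate 1 its S. bayanus allele had 235, 203, 205, 249 and 246 reads in lanes 1, 2, 5, 6 and 8, and its S. cerevisiae allele 273, 238, 241, 255 and 226. In replicate 2 it had 214, 249 and 213 S. bayanus reads in lanes 3, 4 and 7, and 165, 150 and 129 S. cerevisiae reads. The S. cerevisiae allele was thus ahead in 4 of 5 lanes of replicate 1 and behind in all 3 lanes of replicate 2. It gave 52.0% of the reads in replicate 1 (49.97 to 54.0, exact binomial interval) and 39.6% in replicate 2 (36.8 to 42.6). The log2 ratio went from -0.18 to 0.48, a fitted shift of 0.64 ± 0.11 (SE, 1.56-fold, edgeR, adjusted p = 0.000121). The level of the S. cerevisiae allele in replicate 2 was 0.664 of that in replicate 1, and that of the S. bayanus allele was 1.03 of it. The GC content of BAT2 is 6.50 percentage points higher in S. bayanus, and with that trend taken out lane by lane the shift was 0.48 (edgeR, adjusted p = 0.000601).

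LEU9 shifted the other way. Its log2 ratio was between -0.39 and -0.15 in the lanes of replicate 1 and between -0.68 and -0.60 in those of replicate 2. The lanes of the cultures did not overlap, and the fitted shift was -0.42 ± 0.07 (SE, 1.34-fold, edgeR, adjusted p = 2.63e-05). In replicate 2 the S. bayanus allele was at 0.776 and the S. cerevisiae allele at 1.04 of their levels in replicate 1. BAT2 and LEU9 passed in all 14 alternative fits of this test. ILV2 shifted by -0.21 ± 0.06 (SE, 1.16-fold, edgeR, adjusted p = 0.00729), from -0.13 in replicate 1 to -0.32 in replicate 2. This shift did not pass with DESeq2 (adjusted p = 0.143), with the UCB lanes alone (edgeR, adjusted p = 0.165), without lane 3 (edgeR, adjusted p = 0.0851) or without lane 7 (edgeR, adjusted p = 0.103). The shift of ILV5 was 0.17 ± 0.06 (SE, edgeR, adjusted p = 0.0638), and it passed in 5 of the 14 alternatives. The ratios of LEU2, LEU4, BAT1 and ILV3 shifted by -0.14, -0.15, 0.07 and 0.03 on the log2 scale, with adjusted p of 0.163 to 0.820 (edgeR). Of these, only LEU4 passed in an alternative fit, with the GC trend taken out, at -0.19 (edgeR, adjusted p = 0.0388). Without lane 4 the LEU4 shift was -0.0013 (edgeR, adjusted p = 0.995).

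The place of sequencing made no difference that could be detected. The allele by site interaction, fitted with the culture as a term, called 0 of the 8 genes in edgeR, with 0 at an unadjusted p under 0.05, and 0 in DESeq2. Over all tested genes it called 0%, with 236 genes at an unadjusted p under 0.05. The shifts of the 8 genes between sites ran from -0.27 for LEU2 to 0.20 for BAT2 on the log2 scale.

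The levels over both alleles also differed between the cultures, with 1 library each and therefore no test. They were higher in replicate 2 for 6 of the 8 genes, while 36.0% of all tested genes were higher there and the median gene was at 0.918 of its level in replicate 1. ILV5 was at 1.65-fold (above 97.4% of tested genes), LEU4 at 1.43-fold (94.7%), LEU2 at 1.38-fold (93.1%) and ILV3 at 1.29-fold (89.7%). BAT1 and ILV2 were at 1.14-fold and 1.12-fold. LEU9 and BAT2 were at 0.909 (above 48.0% of tested genes) and 0.846 (33.5%) of their levels in replicate 1. LEU9 was thus close to the median gene. In each paralog pair the members changed by different folds. The level of LEU4 was 0.808 of that of LEU9 in replicate 1 and 1.27 times it in replicate 2, and BAT1 was 3.58 and 4.80 times BAT2.

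**Figure D4:**
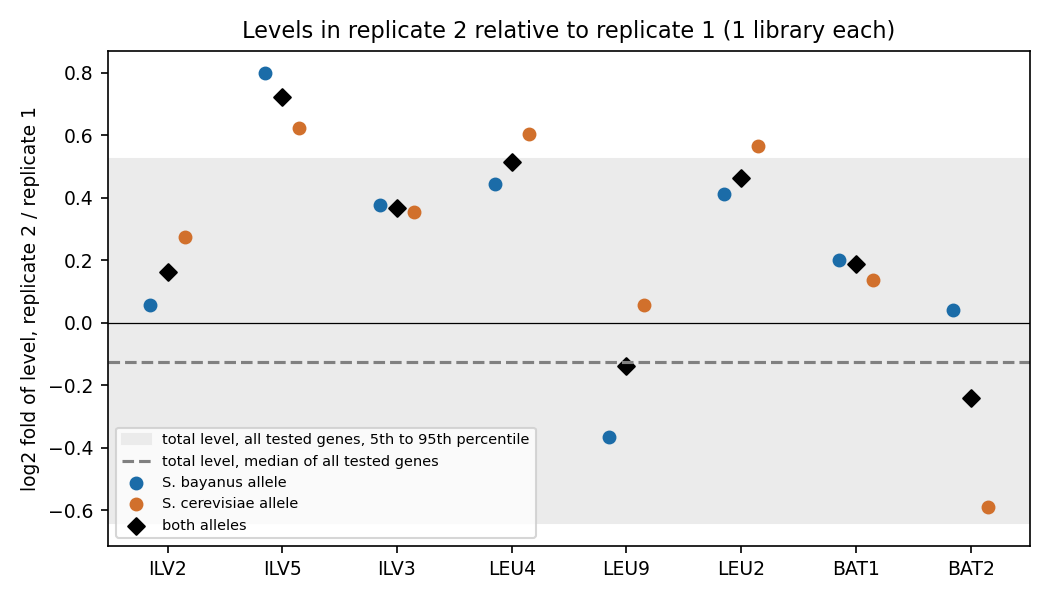
Log2 fold of the level in replicate 2 over replicate 1 (x axis, genes; y axis, log2 fold; diamonds, both alleles; blue, S. bayanus; orange, S. cerevisiae; band and dashed line, total level of all tested genes). ILV5, at 1.65-fold over both alleles, lies above the band, and LEU9 and BAT2 are the only genes of the 8 below a fold of 1.

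Of 10 genes next to the pathway, 9 were analysed, and the alleles differed in 7 of them, where 53.5% of all tested genes passed. Of these, 3 were toward S. bayanus (26.6% of all tested genes) and 4 toward S. cerevisiae (26.9%). Their median absolute log2 ratio was 0.38, against 0.37 over all tested genes. Among the deaminases, ILV1 (YER086W), the threonine deaminase that feeds the isoleucine branch, was higher from S. cerevisiae at -0.37 ± 0.08 (SE, edgeR, adjusted p = 0.0140). CHA1 (YCL064C), the catabolic serine and threonine deaminase, was higher from S. bayanus at 1.70 ± 0.12 (SE, 3.24-fold, edgeR, adjusted p = 0.000780). Levels were 1173 and 1252 for the S. bayanus allele and 412 and 336 for the S. cerevisiae allele.

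Both regulators passed. GCN4 (YEL009C) was higher from S. bayanus at 0.38 ± 0.09 (SE, edgeR, adjusted p = 0.0188). LEU3 (YLR451W) was higher from S. cerevisiae at -0.31 ± 0.10 (SE, edgeR, adjusted p = 0.0444), and 7 of its 20 alternative fits with a test did not pass. Its level over both alleles, 46.3 and 39.4, was below the median gene, and that of GCN4, 4452 and 5543, was above 99.7% of genes. OAC1 (YKL120W), a mitochondrial carrier that can export isopropylmalate, was higher from S. bayanus at 0.45 ± 0.10 (SE, edgeR, adjusted p = 0.0175). It did not pass with DESeq2 (adjusted p = 0.0961), with the UCR lanes alone (edgeR, adjusted p = 0.0704) or without the replicate block (edgeR, adjusted p = 0.0903), and without that block neither did ILV1 or GCN4 (edgeR, adjusted p = 0.327 and 0.429). The branched-chain amino acid permease BAP3 (YDR046C) was higher from S. cerevisiae at -1.09 ± 0.08 (SE, 2.13-fold, edgeR, adjusted p = 0.000866), with levels of 167 and 211 against 351 and 451. ARO10 (YDR380W), a decarboxylase that takes the keto acids toward fusel alcohols, was higher from S. cerevisiae at -2.94 ± 0.14 (SE, 7.69-fold, edgeR, adjusted p = 0.000327). Counts were 84 and 47 reads for the S. bayanus allele and 637 and 309 for the S. cerevisiae allele. MMF1 (YIL051C) and BAP2 (YBR068C) did not pass, at 0.09 and 0.28. Between the cultures the allele ratio differed in 4 of the 9 genes (edgeR), against 17.9% of all tested genes. It lay more toward S. bayanus in replicate 2 for CHA1 and BAP2 (8.72% of all) and more toward S. cerevisiae there for GCN4 and MMF1 (9.20%). The median absolute log2 shift of the 9 genes was 0.13, against 0.17 over all tested genes. Their median SE was also smaller, at 0.0755 against 0.128.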

How the data were processed

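The values are counts, as deposited, of the reads assigned to each allele of a gene in each lane. The submitters' processing notes name Bowtie. Its settings, the genome builds and the rule for reads that match both genomes or a paralog are not stated in the labels, nor is whether strand was used, so reads of antisense or overlapping genes cannot be told apart. The authors' natural log ratios, resampling p-values and score of -1, 0 or 1 per gene were read from their deposited table and only the score was reported; its lengths and GC differences were used as deposited. Another 4 deposited columns of sums were not used. The table names genes by systematic name only; standard names were added by hand from the S. cerevisiae nomenclature.

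Lanes were summed per culture. edgeR 4.0.16 in R 4.3.3 tested 4 columns, with TMM scaling of each allele column, the log of mappable length as an offset and a minimum of 10 reads per culture, alleles summed. Both alleles are read in 1 library, so the culture was the replicate block. The culture and site tests used 16 lane columns with the lane as a block. Log2 ratios per lane and culture had 0.5 reads added to each allele. DESeq2 1.42.0 was run as an alternative, and other tables were made in Python 3.11.15 with scipy 1.17.1. The fits were also run on simulated data. These had the same spread for all genes in the allele test and counting error alone in the culture test. They therefore do not measure the error rates of the tests in the real data. The members, lists and tests were chosen with earlier results of these data known. The genes named were all members and the analysed genes of the adjacent list. Marker genes and genes near LEU2 were also named, and these were chosen after the LEU2 values were seen. Promoter motifs and protein identity were not analysed here.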

Additional observations from a re-analysis of the deposited data

Results flagged for a closer look

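The allele ratio of BAT2, LEU9 and ILV2 differed between the cultures in the interaction test, by 0.64, -0.42 and -0.21 on the log2 scale, replicate 2 minus replicate 1. Culture and library cannot be told apart. The log2 ratio of LEU9 in lane 1 was -0.39, far from those of the other lanes of replicate 1, which lay between -0.21 and -0.15. Lanes of replicate 1 were examined in this way for 8 genes, and chance gives such a lane in about 1 of 20 groups.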

How the results depend on the processing

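The count of 4 genes with an allele difference was 1 without the replicate block, which left LEU2, and 7 when lanes took the place of cultures, although they are repeat runs. It was 3 to 5 under the other 18 alternatives. For the adjacent genes the count of 7 was 3 without the replicate block and 5 to 9 otherwise. The counts of genes that shifted between cultures (2 to 4, against 3) and between sites (0) stayed within 1.5 times under every alternative run. Over all genes the allele test called 2247, against 866 without the block and 1480 with DESeq2, and the culture test 752, against 282 with DESeq2 and 408 with the UCB lanes alone. The adjusted p of LEU2 was at most 0.00342 over its 20 alternatives with a test (edgeR and DESeq2). Those of LEU4 ran from 1.03e-05 to 0.549 and those of LEU9 from 0.000108 to 0.246. With the GC trend taken out, BAT2 was at -0.0587 and MMF1 at -0.055 on the log2 scale, against 0.13 and 0.09. With the UCB lanes alone the shift of ILV3 between cultures was -0.0146, against 0.03. The causes of these changes were not tested. With 1 common library size for both alleles the median gene moved by 0.11 toward S. bayanus; LEU2, LEU4 and BAT1 still passed, and LEU9 did not. Some S. cerevisiae counts of LEU2 were as low as 22 reads in a lane, which limits the precision of its ratio per lane.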

Other observations

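The other marker genes that the labels list were looked at after the LEU2 values were seen. TRP1 (YDR007W), listed as trp1 for the S. cerevisiae parent, was higher from S. bayanus at a log2 ratio of 2.07 ± 0.14 (SE, edgeR, adjusted p = 0.000718). URA3 (YEL021W), listed as ura3 for the same parent, was at -0.07 (edgeR, adjusted p = 0.523). ADE2 (YOR128C), listed as ade2 for the S. bayanus parent, was at 0.28 (edgeR, adjusted p = 0.0378). LYS2 (YBR115C), listed for both parents, was at -3.29 (edgeR, adjusted p = 0.000263). HIS3 (YOR202W), also listed for both, went from -0.25 in replicate 1 to 1.70 in replicate 2, with a shift of 1.92 (edgeR, adjusted p = 1.01e-09). That p measures the spread between lanes only, since each culture gave 1 library. The GC difference of HIS3 is 13.0 percentage points, where the 90th percentile of all genes is 6.18, and its part in the shift was not tested.

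The analysed genes nearest to LEU2 by systematic name on the left arm of chromosome III were also chosen after its values were seen. On the side of the centromere, YCL017C had a log2 ratio of 0.09 (edgeR, adjusted p = 0.444) and YCL016C 0.66 (edgeR, adjusted p = 0.00639). On the side of the telomere, YCL021W-A had a log2 ratio of -4.11 ± 0.34 (SE, edgeR, adjusted p = 0.00106), opposite in direction to LEU2. This ratio is less precise than that of LEU2, which had an SE of 0.11. YCL024W was at 0.07 (edgeR, adjusted p = 0.596). Their S. cerevisiae alleles had levels of 263 and 302 for YCL017C, 55.1 and 45.8 for YCL016C, 40.9 and 57.7 for YCL021W-A, and 31.7 and 32.5 for YCL024W, against 30.9 and 45.6 for LEU2. Only YCL017C of these 4 genes stood far above LEU2 in the level of that allele.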
